A study of Mus musculus with 24 samples.

Results

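Matrix metalloproteinases (MMPs) and their tissue inhibitors (TIMPs) were followed in sorted cells of irradiated mouse lung. The members were the 4 TIMP genes Timp1, Timp2, Timp3 and Timp4 and the 6 metalloproteinase genes Mmp2, Mmp3, Mmp11, Mmp14, Mmp19 and Mmp23, taken by gene symbol from both deposited tables, 10 of 48795 gene identifiers in each table. All 10 passed the filter on low values in both tables. Female Balb/c mice aged 8 weeks made up 3 groups of 4. Sham mice underwent sham irradiation and received an IgG control antibody. Irradiated mice received 13 Gy to the lungs and the same IgG. Depleted mice received this irradiation and, each day, an anti-Ly6G antibody that depletes neutrophils. Cells were collected 7 days after the dose. Cells negative for CD45 (leukocytes), CD31 (endothelium) and Ter119 (erythroid cells) were sorted into an EpCAM-positive epithelial and an EpCAM-negative mesenchymal fraction, with 4 libraries in each of the 6 groups. There was no group with the Ly6G antibody and no irradiation, so depletion was seen only in irradiated lungs. The gate is named with CD31 in the cell type entries, while the extraction text names CD45 in its place.

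MMPs are zinc-dependent endopeptidases that cut collagens, elastin, proteoglycans and other proteins of the extracellular matrix, and that also release growth factors and cytokines from it. Most are secreted as inactive proenzymes, while Mmp14 is anchored in the plasma membrane and activates the Mmp2 proenzyme together with Timp2. TIMPs bind the active site of the enzymes, and Timp3 is held in the matrix and also inhibits ADAM and ADAMTS proteases. In lung these genes are known for their part in the remodelling of alveolar walls and airways, and in fibrosis and emphysema.

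The deposited values are normalised read counts, read counts divided by 1 size factor per library. Epithelial libraries held 8159062 to 13373329 reads and mesenchymal libraries 7366672 to 11408083. Levels of the members were not compared between fractions, whose tables are scaled separately. A call means a p below 0.05 after Benjamini-Hochberg adjustment over all tested genes, in limma on log2(value + 1) with the 3 groups of a fraction in 1 fit. Changes are given as log2 differences with their standard error, on that scale, which understates the change of genes with low counts. Adjusted p-values below are from this limma fit unless another tool is named. The labelled fractions held their defining genes. Within the epithelial libraries 14 epithelial genes summed to 612824 to 700029 and 13 fibroblast genes to 11075 to 16004. Within the mesenchymal libraries the fibroblast genes summed to 176132 to 274285 and the epithelial genes to 3152 to 10527. Both fractions thus carried transcripts of the other, and in bulk samples fewer cells of a type and less RNA per cell cannot be told apart.

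Timp1 and Mmp3, the inhibitor and the protease with the largest rises after depletion in the mesenchyme, are shown by the 250 bases before their annotated RefSeq starts (GRCm38.p6), at chrX:20869916-20870165 and chr9:7445572-7445821, both on the + strand, 5′ to 3′. Capitals mark matches to 4 motifs searched on both strands.
Timp1: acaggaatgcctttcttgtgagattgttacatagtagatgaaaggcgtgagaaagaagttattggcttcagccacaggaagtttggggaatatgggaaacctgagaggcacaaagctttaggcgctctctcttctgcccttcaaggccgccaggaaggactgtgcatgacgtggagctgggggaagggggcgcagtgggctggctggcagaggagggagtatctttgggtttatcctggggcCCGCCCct
Mmp3: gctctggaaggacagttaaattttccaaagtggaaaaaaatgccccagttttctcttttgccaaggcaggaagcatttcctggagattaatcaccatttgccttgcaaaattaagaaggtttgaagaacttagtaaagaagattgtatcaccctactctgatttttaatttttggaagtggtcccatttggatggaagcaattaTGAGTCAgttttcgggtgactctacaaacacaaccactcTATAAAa
The motifs were AP-1 (TGANTCA), a STAT site (TTCNNNGAA), a TATA box (TATAAA) and a GC box (GGGCGG). In Mmp3 the capitals are an AP-1 match that begins 46 bases before the start and a TATA box that begins 7 bases before it. In Timp1 they are a GC box on the opposite strand that begins 8 bases before the start. Of 32851 RefSeq promoter windows of this length, 6.75% held the AP-1 letters, 7.02% the STAT letters, 12.4% the TATA letters and 32.7% the GC box letters. RefSeq windows matched 8 of the 10 members, with 9 windows in all, and Mmp3 was the member with an AP-1 match. A match is a description of the letters and shows no binding.

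In sham mesenchyme the inhibitors Timp2 and Timp3 and the gelatinase Mmp2 were the most abundant members per kilobase of exon. The mean levels per kb were 2468 for Timp2, 2331 for Timp3 and 2280 for Mmp2, and neighbours in this order overlapped over the 4 libraries. Mmp3 (557 per kb) and Mmp14 (430 per kb) came next and did not overlap with their neighbours. Timp1 (240 per kb), Mmp11 (215 per kb) and Mmp19 (193 per kb) overlapped, and Mmp23 (99.9 per kb) and Timp4 (27.6 per kb) were lowest. In depleted mesenchyme the order was Mmp2 (3497 per kb), Timp2 (2119 per kb), Timp3 (1469 per kb), Timp1 (1343 per kb) and Mmp3 (1140 per kb), and the last 3 overlapped from neighbour to neighbour. In sham epithelium Timp3 (600 per kb) and Timp2 (351 per kb) were highest, followed by Mmp2 (117 per kb), Mmp11 (84.5 per kb) and Mmp14 (69.2 per kb), none of which overlapped with the next. Mmp19, Mmp3, Timp1 and Mmp23 lay between 16.4 and 12.6 per kb and overlapped from neighbour to neighbour, and Timp4 was lowest at 1.74 per kb. In depleted epithelium Timp1 (174 per kb) had a level that overlapped with Mmp2 (196 per kb).

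Timp1, a secreted inhibitor of most soluble MMPs, lies on chromosome X from 20870166 to 20874735 (GRCm38, + strand, ENSMUSG00000001131), inside the gene Syn1 on the opposite strand, with which it shares 0 exon bases. In the mesenchyme its normalised counts were 205, 266, 178 and 203 in sham, 353, 462, 401 and 334 in irradiated, and 1174, 983, 1121 and 1491 in depleted libraries. The 3 groups did not overlap: every irradiated library was above every sham library, and every depleted library above every irradiated one. The group means were 213 ± 37.7, 387 ± 57.1 and 1192 ± 215 (SD, n = 4 each). Irradiation raised Timp1 by 0.86 ± 0.144 (adjusted p = 0.00533), depletion raised it over irradiation alone by 1.61 ± 0.144 (adjusted p = 7.36e-05), and depleted stood above sham by 2.48 ± 0.144 (adjusted p = 2.53e-07). The last 2 comparisons kept their call in each of 23 alternatives, and the first lost it with leukocyte genes as a covariate, where the change was 0.73 (adjusted p = 0.297). Syn1, a synaptic vesicle protein gene whose introns hold Timp1, averaged 36.9, 36.4 and 34.7 and was not called.

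**Figure D1:**
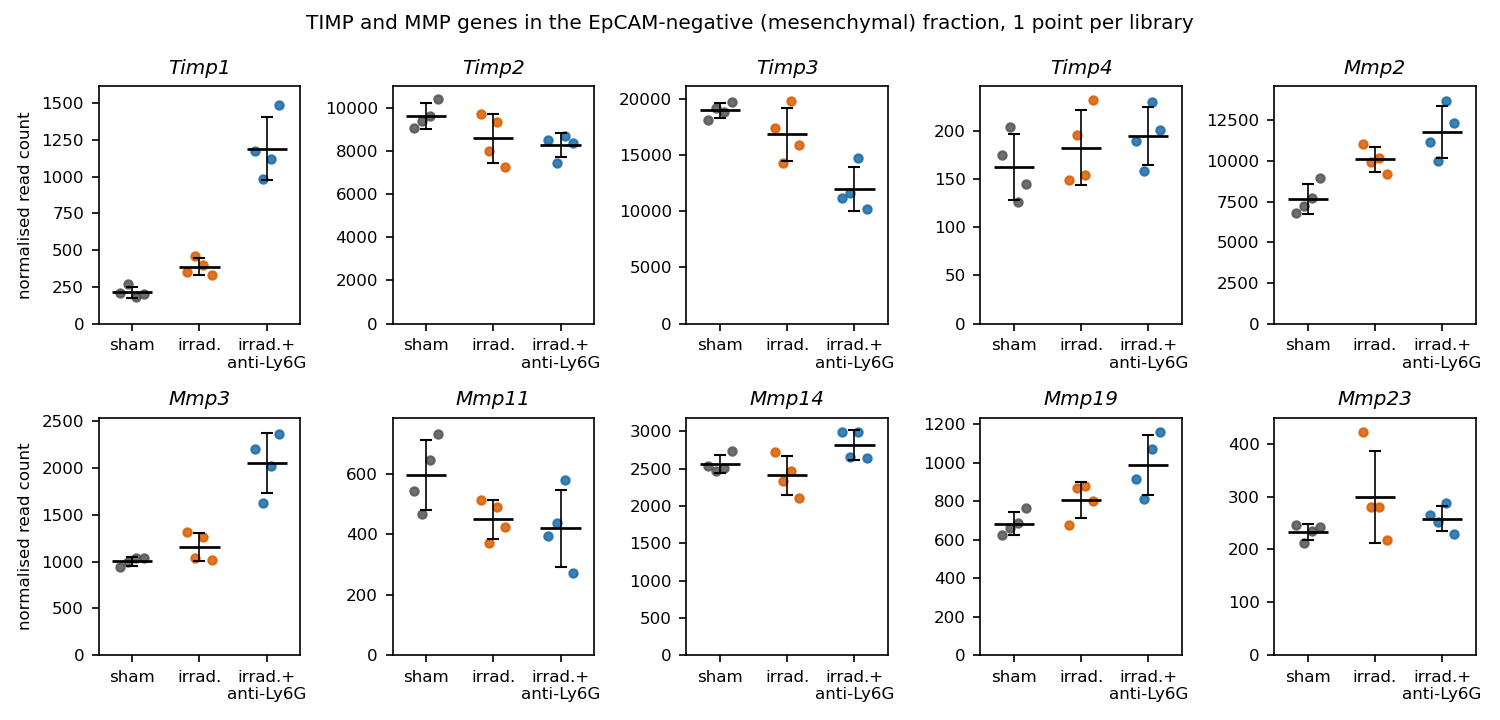
Normalised read count (linear axis from 0) of each of the 10 genes in the mesenchymal fraction, 1 point per library for sham, irradiated and irradiated with anti-Ly6G. Lines with bars are mean and SD of 4 libraries. Timp1 lies at 178 to 266, 334 to 462 and 983 to 1491 in the 3 groups, while Timp3 lies at 10181 to 14777 in depleted against 18130 to 19738 in sham libraries.

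Timp3, the matrix-bound inhibitor, fell in depleted mesenchyme. It lies on chromosome 10 from 86300372 to 86349506 (+ strand, ENSMUSG00000020044). Its normalised counts were 18130, 19224, 18843 and 19738 in sham, 17405, 14260, 19856 and 15935 in irradiated, and 11214, 11669, 14777 and 10181 in depleted libraries. All depleted libraries were below all sham libraries, whereas depleted replicate 3 was above irradiated replicate 2. Depleted against sham fell by 0.68 ± 0.116 on the log2 scale (adjusted p = 0.00115), a call kept in each of 23 alternatives. Depleted against irradiated fell by 0.50 ± 0.116 (adjusted p = 0.0315). That call was lost without irradiated replicate 1, 3 or 4 or depleted replicate 1, 2 or 4, with no filter on low values and with the 2 groups fitted alone (adjusted p of 0.0575 to 0.108). Irradiated against sham was -0.18 ± 0.116 (adjusted p = 0.405). Timp3 lies inside Syn3, on the opposite strand, and 1733 bases (21.3%) of its exons are shared. Whether the authors' counting used strand is not given in the sources used here, but Syn3 averaged 179, 177 and 125 in the 3 mesenchymal groups, against 18984, 16864 and 11960 for Timp3.

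Timp2, which serves both as inhibitor and in the activation of Mmp2 by Mmp14, and Timp4 were not called in any comparison in either fraction. Mesenchymal Timp2 ranged from 9044 to 10426 in the sham group, from 7275 to 9694 after irradiation and from 7449 to 8710 after depletion. Depleted and sham libraries did not overlap, but the difference of -0.22 ± 0.0958 missed the threshold (adjusted p = 0.136). Its 95% interval ran from -0.42 to -0.02. Timp4 was 126 to 204, 149 to 232 and 158 to 230 in the mesenchyme, with overlap between all groups. Timp2 lies on chromosome 11 from 118301069 to 118355740 and Timp4 on chromosome 6 from 115241892 to 115252205, both on the - strand. Timp4 lies inside Syn2 and shares 90 exon bases (1.5%) with it. Syn2 averaged 436, 341 and 268 in the mesenchymal groups, above Timp4, and was not called. In the epithelium Timp4 was at 4.85 to 13.8, not far above the value of 2.36 to 3.81 that 3 reads give there. The 95% interval of its depleted-against-sham difference ran from -1.15 to 0.41.

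The make-up of the TIMP transcripts in the mesenchyme moved with these changes. Timp1 made up 4.74% ± 0.832 (SD, n = 4) of the summed TIMP level per kb in sham, 9.29% ± 1.81 in irradiated and 27.0% ± 4.14 in depleted libraries. The Timp3 share was 46.0% ± 0.496, 43.6% ± 2.89 and 29.6% ± 4.20. Depleted libraries ranged from 23.6% to 32.9% for Timp1 and from 24.5% to 33.9% for Timp3, so the pair overlapped there, and in sham libraries the pair was far apart. In the epithelium Timp1 made up 1.35% ± 0.141, 4.02% ± 2.19 and 14.3% ± 4.96, and Timp3 remained the largest share at 62.1%, 61.1% and 55.6%. These shares restate the levels above and were not tested.

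**Figure D2:**
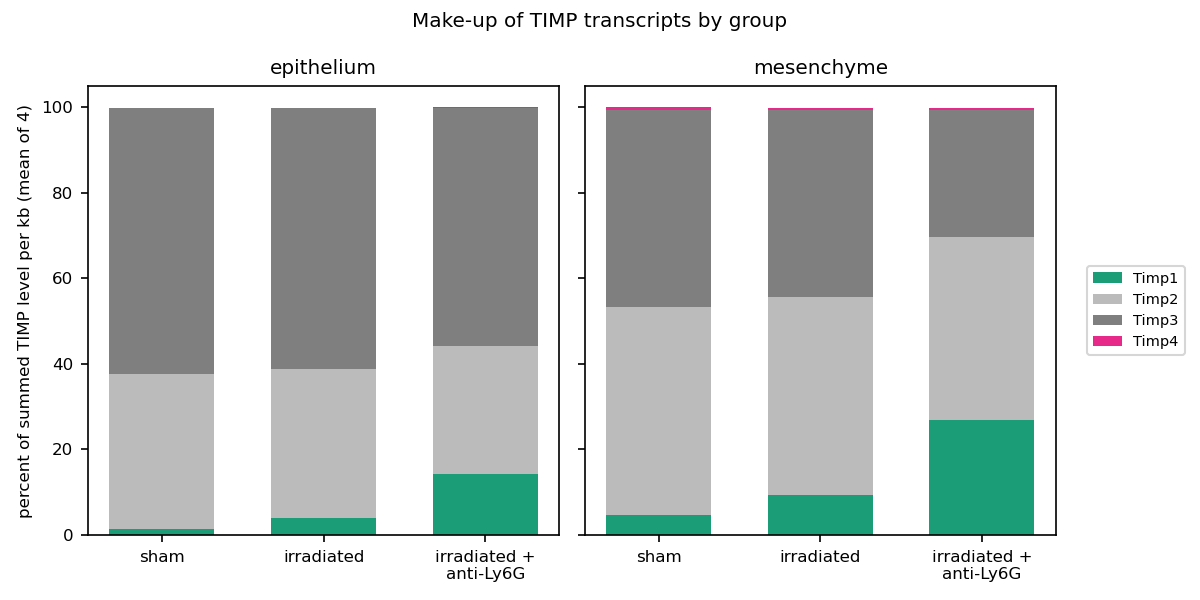
Mean share of each TIMP gene in the summed TIMP level per kilobase of exon (percent, mean of 4 libraries), by group, in each fraction. The Timp1 segment goes from 4.74% to 27.0% in the mesenchyme and from 1.35% to 14.3% in the epithelium between sham and depleted.

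Among the proteases, Mmp3 (stromelysin 1, which cuts proteoglycans, fibronectin and other MMP proenzymes) was raised in depleted mesenchyme. It lies on chromosome 9 from 7445822 to 7455975 (+ strand, ENSMUSG00000043613). The normalised counts were 937, 995, 1043 and 1039 in sham, 1314, 1040, 1258 and 1017 in irradiated, and 2207, 1623, 2018 and 2364 in depleted libraries. Every depleted library was above every other library, while irradiated and sham libraries overlapped. Depleted exceeded irradiated by 0.82 ± 0.110 (adjusted p = 0.000899) and sham by 1.02 ± 0.110 (adjusted p = 2.52e-05), and both calls held in each of 23 alternatives. Irradiated against sham was 0.20 ± 0.110 (adjusted p = 0.328), with a 95% interval from -0.04 to 0.43.

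Mmp2 (gelatinase A, which degrades denatured collagen and type IV collagen) was higher in both irradiated groups of mesenchyme. It lies on chromosome 8 from 92827291 to 92853420 (+ strand, ENSMUSG00000031740). The normalised counts were 6818, 7249, 7728 and 8946 in sham, 11064, 9929, 10194 and 9219 in irradiated, and 11155, 9987, 13702 and 12311 in depleted libraries. All sham libraries were below all irradiated and depleted ones, and irradiated and depleted libraries overlapped. Depleted exceeded sham by 0.61 ± 0.107 (adjusted p = 0.0013), in each of 23 alternatives. Irradiated exceeded sham by 0.40 ± 0.107 (adjusted p = 0.0499), at the edge of the threshold. That call was lost in 14 of 23 alternatives with adjusted p up to 0.128, among them edgeR (0.0571) and leaving out sham replicate 1, 2 or 3, any irradiated replicate or depleted replicate 1. Depleted against irradiated was 0.22 ± 0.107 (adjusted p = 0.304).

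Mmp19, a secreted protease of basement membrane proteins, was called in depleted against sham mesenchyme. It lies on chromosome 10 from 128790910 to 128800824 (+ strand, ENSMUSG00000025355). Its normalised counts were 625, 659, 686 and 763 in sham, 676, 867, 876 and 801 in irradiated, and 915, 812, 1072 and 1160 in depleted libraries. Every depleted library exceeded every sham library, and irradiated libraries overlapped with both. The rise over sham was 0.52 ± 0.111 (adjusted p = 0.00538), kept in each of 23 alternatives. Mmp19 shares 789 exon bases (22.3%) with Tmem198b and 212 (6.0%) with Gm47093, both on the opposite strand. Tmem198b averaged 191, 233 and 219 against 683, 805 and 990 for Mmp19, so the Mmp19 counts are uncertain as far as reads of the shared exons could be given to either gene.

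Mmp14 (chromosome 14, 54431612 to 54445364, + strand), Mmp11 (chromosome 10, 75923222 to 75936496, - strand) and Mmp23 (chromosome 4, 155650655 to 155653384, - strand) were not called in the mesenchyme. Mmp14, the membrane-type activator of Mmp2, ranged from 2472 to 2734 (sham), 2105 to 2731 (irradiated) and 2640 to 2997 (depleted), and depleted against irradiated was 0.23 ± 0.0822 (adjusted p = 0.151). Mmp11 (stromelysin 3, released in active form) was 467 to 734, 370 to 514 and 271 to 580. Its depleted-against-sham difference of -0.54 ± 0.214 (adjusted p = 0.118) passed the threshold without depleted replicate 3 (0.0268). Mmp11 shares 155 exon bases (5.6%) with Chchd10 on the opposite strand. Mmp23, a membrane-tethered member of the family, was 212 to 246, 217 to 422 and 230 to 287, with all groups overlapping.

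Counted over the 10 genes, irradiation raised 2 in the mesenchyme (Timp1, Mmp2) and lowered 0, where 3.8% of all 16624 tested genes were called (2.64% higher, 1.15% lower). The median member change was 0.18 against -0.01 over all tested genes, and 2 members did not overlap between groups, against 11.8% of all genes. Depletion over irradiation raised 2 (Timp1, Mmp3) and lowered 1 (Timp3), where 2.69% of genes were called (2.02% higher, 0.674% lower). The median was 0.16 against 0.00, and 2 members did not overlap, against 10% of all genes. In depleted against sham 4 rose (Timp1, Mmp2, Mmp3, Mmp19) and 1 fell (Timp3), where 15.2% were called (8.51% higher, 6.7% lower), with a median of 0.21 against -0.01 and 6 members without overlap, against 19.3%. The 3 comparisons of a fraction share groups and are not independent of each other.

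In the mesenchymal libraries transcripts of other cell types also moved. Sums of 10 leukocyte genes were 293 to 874 (sham), 834 to 1889 (irradiated) and 657 to 1485 (depleted), with none of these genes at 0 in all libraries of a group. Called higher were 2 of 10 in irradiated against sham and 2 of 10 in depleted against sham. Epithelial genes summed to 3152 to 6036, 5718 to 10527 and 5678 to 9390, with 1 and 5 of 13 tested genes called higher in the same comparisons. Sums of 11 endothelial genes were 1137 to 2753, 2786 to 4722 and 1997 to 3742, with 1 and 2 of 11 called higher. Macrophage genes summed to 694 to 1746, 1672 to 3955 and 1540 to 2758, with 3 and 5 of 10 tested genes called higher, and Marco was at 0 in all sham libraries. Of the mesenchymal lists, 0 of 13 fibroblast and 0 of 10 smooth muscle and pericyte genes were called in irradiated against sham. In depleted against sham 2 of 13 fibroblast genes (Npnt, Inmt) and 1 of 10 smooth muscle and pericyte genes (Pdgfrb) were lower. In both lists 0 were higher there, where 15.2% of all genes were called. For depleted against irradiated, 0 of 10 leukocyte, 0 of 13 epithelial and 0 of 13 fibroblast genes were called in limma (1, 1 and 3 at an unadjusted p under 0.05), while of 9 tested neutrophil genes 2, Csf3r and Cxcr2, were lower and 0 higher. The median change of those 9 was 0.37, and Mmp8 among them was at 1.20 (unadjusted p = 0.0123, adjusted p = 0.146). Against sham, 4 of the 9 neutrophil genes were called higher in irradiated and 6 in depleted libraries, and 0 were lower. Mmp8, among the 6, had a sham mean of 6.51, under the filter value of 10. The direction of these counts may thus be set in part by the filter. With the leukocyte genes as a covariate, the irradiated-against-sham change was 0.73 for Timp1 (0.86 without it) and 0.61 for Mmp2 (0.40 without it), and neither was called (adjusted p = 0.297 and 0.0775). The calls over all genes went from 631 to 58 in that fit. The part of these cells in the Timp1 and Mmp2 differences was not tested beyond this.

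In the epithelium, Mmp2 was the member called after irradiation. Its normalised counts were 362, 437, 408 and 364 in sham, 482, 648, 678 and 550 in irradiated, and 682, 686, 571 and 708 in depleted libraries. Sham libraries lay below all others, and irradiated and depleted libraries overlapped. Irradiated exceeded sham by 0.58 ± 0.103 (adjusted p = 0.00488) and depleted exceeded sham by 0.75 ± 0.103 (adjusted p = 0.000241). Depleted against irradiated was 0.18 ± 0.103 (adjusted p = 0.527).

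Timp1 in the epithelium was low in sham and highest in depleted libraries. Its normalised counts were 13.7, 12.7, 9.82 and 10.4 in sham, 15.7, 67.8, 36.4 and 33.0 in irradiated, and 125, 82.6, 159 and 252 in depleted libraries. The 3 groups did not overlap, though irradiated replicate 1 lay close to the sham libraries. Depleted exceeded sham by 3.52 ± 0.392 (adjusted p = 0.00012). Depleted exceeded irradiated by 2.05 ± 0.392 (adjusted p = 0.0436), a call lost in 16 of 25 alternatives (adjusted p up to 0.488), among them edgeR (0.0566) and leaving out any sham replicate, irradiated replicate 3 or 4 or depleted replicate 1, 3 or 4. Irradiated against sham was 1.47 ± 0.392 and missed the threshold (adjusted p = 0.0662). It passed in DESeq2 (adjusted p = 0.0152), with library weights (0.0192), with the 2 groups fitted alone (0.0393), and without irradiated replicate 1 (0.00618) or depleted replicate 2 (0.0409) or 4 (0.0312). In 19 of 25 alternatives it stayed uncalled, among them edgeR (0.113) and the replicate block (0.116). The change was 0.94 (adjusted p = 0.997) with leukocyte, 1.18 (0.891) with fibroblast and 1.02 (0.248) with mesothelial genes as a covariate.

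Mmp3 in the epithelium was 24.4, 32.9, 31.3 and 16.7 in sham, 46.0, 35.5, 41.3 and 44.2 in irradiated, and 60.6, 59.7, 42.9 and 73.0 in depleted libraries. Sham libraries lay below all others, and depleted replicate 3 lay within the irradiated range. Depleted exceeded sham by 1.16 ± 0.218 (adjusted p = 0.0024), while irradiated against sham, at 0.68 ± 0.218, missed the threshold (adjusted p = 0.104). Epithelial Mmp19 was 51.8 to 62.6, 58.7 to 89.8 and 59.7 to 108, and its depleted-against-sham difference of 0.55 ± 0.178 missed the threshold in limma (adjusted p = 0.0555). It passed in edgeR (0.046), in DESeq2 (0.0365), and without irradiated replicate 1 (0.0467) or depleted replicate 2 (0.0113). In 21 of 25 alternatives Mmp19 stayed uncalled. The change was 0.49 (adjusted p = 0.48) with leukocyte, 0.39 (0.844) with fibroblast and 0.12 (0.915) with mesothelial genes as a covariate. 

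The abundant epithelial members Timp3, Timp2 and Mmp14 had narrow intervals that included 0. For depleted against sham the 95% intervals on the log2 scale were -0.02 to 0.27 for Timp3, -0.12 to 0.13 for Timp2 and -0.07 to 0.22 for Mmp14. Their libraries ranged over all groups from 4567 to 6072 for Timp3, from 1268 to 1556 for Timp2 and from 389 to 462 for Mmp14. Mmp11 was 206 to 284 (sham), 207 to 242 (irradiated) and 142 to 210 (depleted), with a depleted-against-sham difference of -0.32 ± 0.122 (adjusted p = 0.0987). Chchd10, which shares 155 exon bases with Mmp11, averaged 596, 558 and 508 in these groups, above Mmp11. How far reads of the shared exons enter the Mmp11 counts was not tested. Mmp23 was 16.1 to 43.9 over all epithelial libraries, and its groups overlapped.

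**Figure D3:**
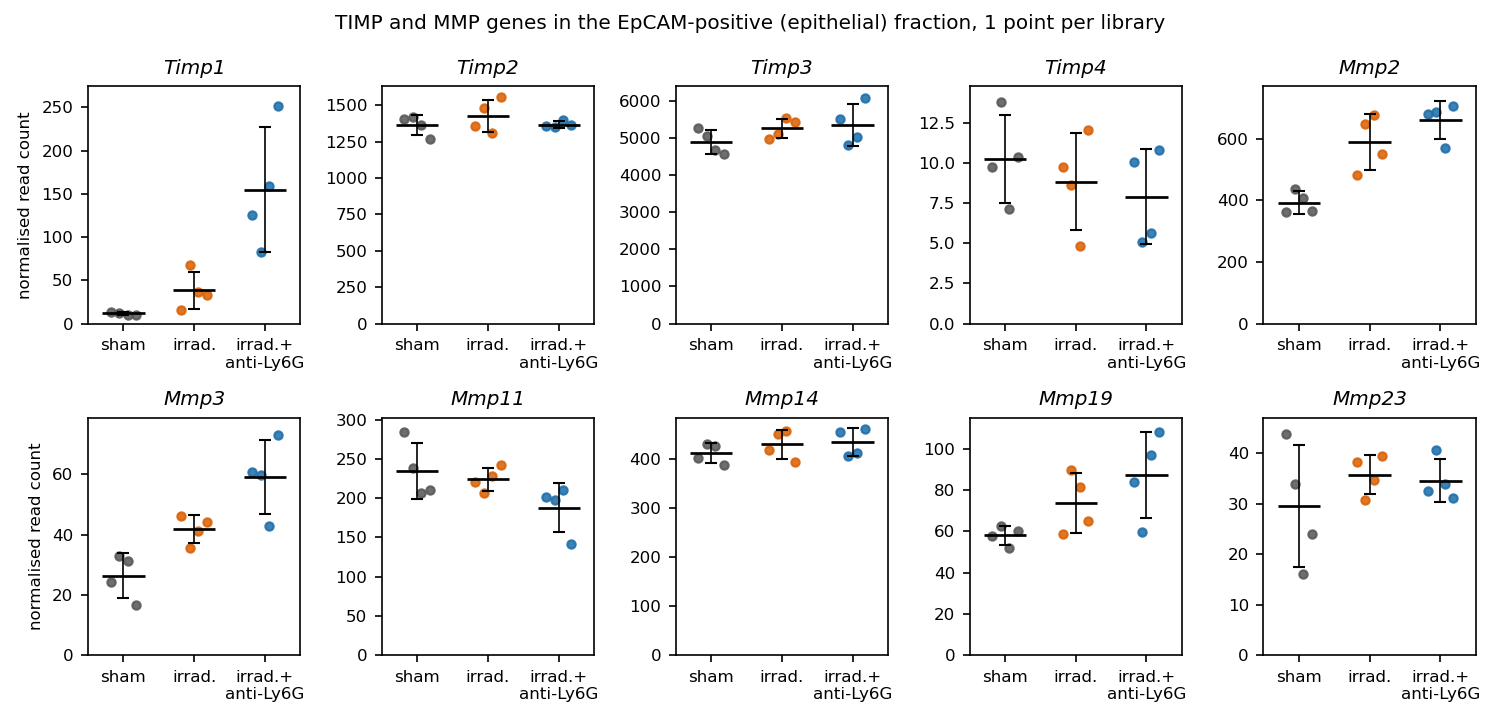
Normalised read count (linear axis from 0) of each of the 10 genes in the epithelial fraction, 1 point per library, with mean and SD of 4 libraries. Sham libraries lie below all others for Mmp2 (362 to 437), Mmp3 (16.7 to 32.9) and Timp1 (9.82 to 13.7), while the groups overlap for Timp2 and Timp3.

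Over the 10 genes in the epithelium, irradiation raised 1 (Mmp2) and lowered 0, where 3.14% of all 16626 tested genes were called (2.26% higher, 0.878% lower), and 3 members did not overlap, against 8.83% of all genes. Depletion over irradiation raised 1 (Timp1) and lowered 0, where 0.475% were called (0.204% higher, 0.271% lower), and 1 member did not overlap, against 6.41%. In depleted against sham 3 rose (Timp1, Mmp2, Mmp3) and 0 fell, where 11.3% were called (6.52% higher, 4.76% lower), and 3 members did not overlap, against 16.7%. The median member changes were 0.21, 0.02 and 0.22 in these comparisons, against -0.01, 0.00 and -0.01 over all tested genes.

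Genes of other cell types moved in the epithelial fraction together with Timp1, Mmp2 and Mmp3. The 13 fibroblast genes summed to 11075 to 12245 (sham), 11727 to 13579 (irradiated) and 13684 to 16004 (depleted). Called higher were 2 of 13 in irradiated against sham, 1 of 13 in depleted against irradiated and 5 of 13 in depleted against sham. The mesothelial genes Msln, Upk3b, Wt1, Lrrn4 and Upk1b summed to 213, 212, 231 and 301 in sham, 285, 510, 301 and 784 in irradiated, and 601, 496, 1321 and 1463 in depleted libraries. Depleted replicates 3 and 4 were the highest in this sum and in Timp1, whereas irradiated replicate 4 was above depleted replicates 1 and 2 in the sum and below both in Timp1. Of the full list of 6, which also holds Krt19, a gene of epithelial cells too, 4 were called higher in depleted against sham and 0 in the other comparisons in limma, with 2 and 3 at an unadjusted p under 0.05 in irradiated against sham and depleted against irradiated. Leukocyte genes summed to 101 to 348, 392 to 1034 and 427 to 608, and 11 endothelial genes to 907 to 1248, 1519 to 2977 and 1513 to 2336. Of 8 tested neutrophil genes 4 were called higher in irradiated against sham and 5 in depleted against sham, with Ly6g at 0 in all sham libraries. Mmp9, called in both, had a sham mean of 1.65 and passed the filter through the irradiated groups. The direction of these counts was thus set in part by the filter. In depleted against irradiated 0 of the 8 were called in limma (2 at an unadjusted p under 0.05). The sums of all 12 neutrophil genes overlapped between groups, at 317 to 2203, 321 to 1267 and 1026 to 2507. Of 6 tested genes of the macrophage list 3 were higher and 1 (Lyz2) lower in depleted against sham. The 12 genes of that list summed to 93293 to 101679 in sham and 74304 to 90775 in depleted libraries, far above the leukocyte sums. Which cells gave these transcripts was not tested. The 14 epithelial genes of the fraction itself summed to 665933 to 696426 (sham), 633975 to 700029 (irradiated) and 612824 to 663722 (depleted). In depleted against sham 4 of these 14 (Cldn18, Nkx2-1, Krt8, Cdh1) were called lower and 0 higher, where 11.3% of all genes were called. In the other comparisons 0 of the 14 were called. None of the fibroblast, mesothelial, leukocyte or endothelial genes was at 0 in all libraries of a group.

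**Figure D4:**
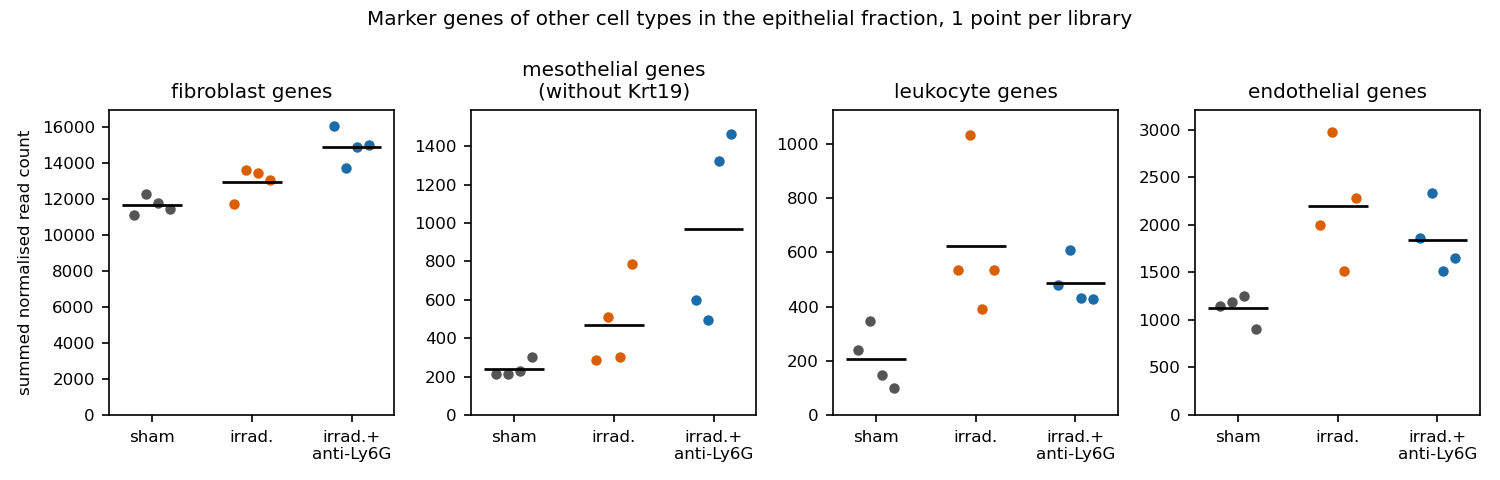
Summed normalised read count of 13 fibroblast, 5 mesothelial, 10 leukocyte and 11 endothelial genes in the epithelial fraction, 1 point per library, with the mean of 4 libraries as a line (linear axes from 0). Fibroblast sums are 13684 to 16004 in depleted and 11075 to 12245 in sham libraries.

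Fits that held the fibroblast, mesothelial or leukocyte marker level constant were run for the epithelium. With the fibroblast genes as a covariate, the depleted-against-sham changes were 3.11 for Timp1 (adjusted p = 0.244), 0.52 for Mmp2 (0.495) and 0.81 for Mmp3 (0.673), against 3.52, 0.75 and 1.16 without it. The irradiated-against-sham change of Mmp2 was 0.41 (adjusted p = 0.631), against 0.58. With the mesothelial genes as a covariate, chosen after seeing the data, the depleted-against-sham change was smaller for Timp1 (2.40, adjusted p = 0.101) and larger for Mmp2 (0.86, adjusted p = 0.0554) and Mmp3 (1.39, adjusted p = 0.167), and Mmp2 kept its call in irradiated against sham (0.62). With the leukocyte genes as a covariate, Timp1 kept its call in depleted against sham (3.08), while Mmp2 (0.61, adjusted p = 0.0596) and Mmp3 (0.95, adjusted p = 0.2) were not called there, nor was Mmp2 in irradiated against sham (0.40, adjusted p = 0.869). The same fits took the calls over all genes in depleted against sham from 1876 to 50, 83 and 181. All these changes kept their direction. With the fibroblast or leukocyte covariate each was smaller, as was Timp1 with the mesothelial covariate, and most of the calls were lost. A covariate that itself differs between the groups cannot be told apart from the group difference.

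**Figure D5:**
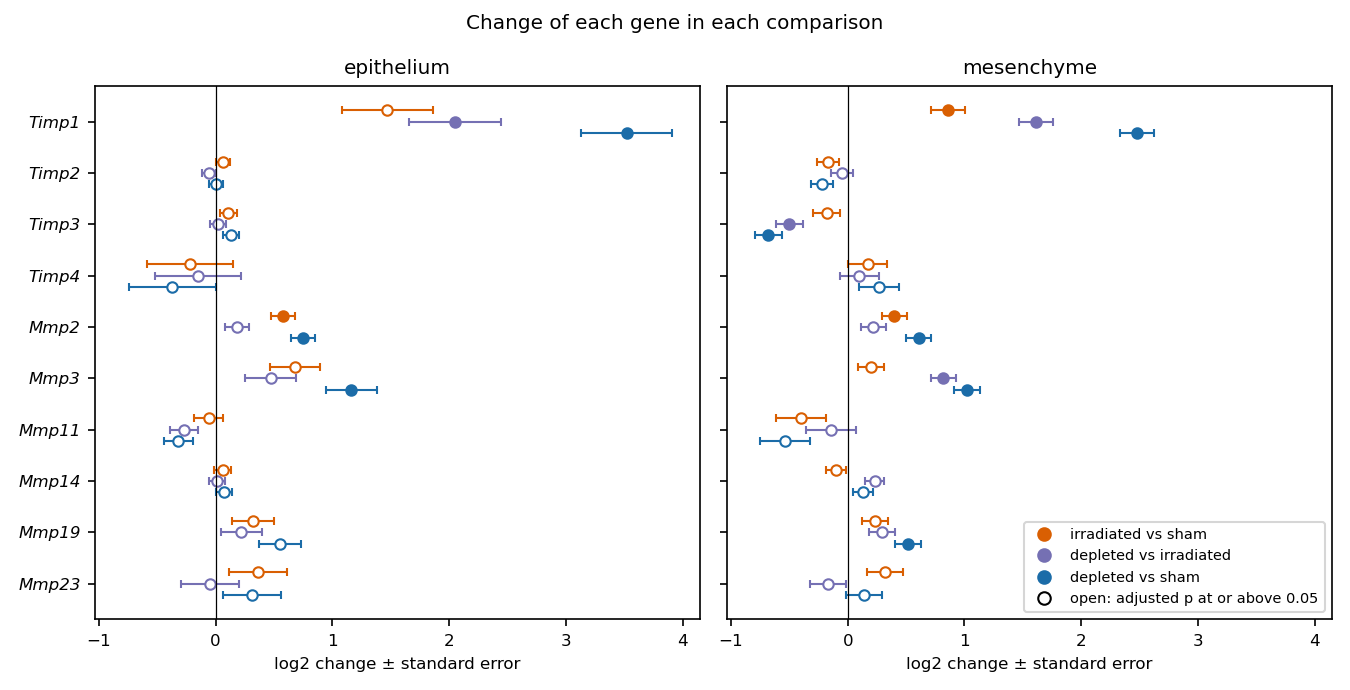
Log2 change with its standard error for each gene in irradiated against sham, depleted against irradiated and depleted against sham, by fraction. Filled points have an adjusted p under 0.05, and Timp1 has the largest changes, up to 3.52 in the epithelium and 2.48 in the mesenchyme.

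The responses of the fractions were compared in 1 fit of all 24 libraries over 15092 genes. The irradiation response differed between fractions for 0 of 10 members in limma, edgeR and DESeq2, where limma called 0.629% of all genes (0.199% with a positive and 0.431% with a negative difference). At an unadjusted p under 0.05 in limma were Timp2 (0.04) and Timp3 (0.0496). The depletion response differed for 0 of 10 in limma, 0 in edgeR and 1 (Timp3) in DESeq2, where limma called 0.596% of all genes (0.0994% positive and 0.497% negative). At an unadjusted p under 0.05 in limma were Mmp14 (0.0432) and Timp3 (0.000921). For Timp3 the depletion response, epithelium minus mesenchyme, was 0.52 ± 0.138 (95% interval 0.24 to 0.81, adjusted p = 0.0952), and it was called without mesenchymal irradiated replicate 2 or mesenchymal depleted replicate 3. For Timp1 the differences were 0.60 ± 0.452 for irradiation (95% interval -0.34 to 1.54, adjusted p = 0.604) and 0.43 ± 0.452 for depletion (-0.51 to 1.38, adjusted p = 0.791). Differences within these intervals, which reach further on the positive side, were not excluded. The design names 4 mice per group, and whether both fractions came from the same mice is not stated.

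Of 17 other metalloproteinase genes, 5 were tested in the epithelium and 9 in the mesenchyme. Mmp9 (gelatinase B, abundant in neutrophils) was called higher after irradiation in the epithelium, with means of 1.65 in sham and 16.0 in irradiated libraries (adjusted p = 0.00383). The sham mean lies under the value that 3 reads give there, and the gene passed the filter through the irradiated groups, so no size of change is given. The mesenchymal means were 13.0 and 38.3 (1.64 ± 0.385, adjusted p = 0.0312). Mmp8 (neutrophil collagenase) was called higher in depleted against sham mesenchyme, with means of 6.51 and 37.4 (2.31 ± 0.425, adjusted p = 0.00186). Its sham mean lies under the filter value of 10, so it may have passed the filter through the irradiated groups. Mmp8 and Mmp9 also stand in the list of 12 neutrophil genes, whose sum in mesenchymal libraries was 113 to 282 (sham), 377 to 790 (irradiated) and 319 to 798 (depleted). Depleted against irradiated gave 0 calls among these other MMPs in either fraction in limma (0 and 3 at an unadjusted p under 0.05), where 0.475% and 2.69% of all genes were called. Mmp15, a membrane-type MMP and the most abundant of the list in the epithelium, averaged 6089, 5738 and 5331 and was not called.

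Regulators of MMP activity were called in the comparisons with sham. Plau (urokinase, which generates plasmin, an activator of MMP proenzymes) and its receptor gene Plaur were each higher in irradiated against sham in both fractions. In the epithelium the changes were 1.88 ± 0.340 for Plau (adjusted p = 0.00423) and 1.18 ± 0.210 for Plaur (adjusted p = 0.00361). In the mesenchyme they were 0.87 ± 0.161 for Plau (adjusted p = 0.00797) and 0.98 ± 0.205 for Plaur (adjusted p = 0.0207). The epithelial sham mean of Plau was 9.39, under the filter value of 10, so Plau may have passed the filter there through the irradiated groups. The regulator that fell after irradiation in the epithelium was Bsg, an inducer of MMPs (means 3316 and 2912, -0.19 ± 0.0503, adjusted p = 0.0486), and 0 fell in the mesenchyme. Of all tested genes 3.14% in the epithelium (0.878% lower) and 3.8% in the mesenchyme (1.15% lower) were called after irradiation. Depleted against irradiated gave 0 calls in both fractions in limma (5 and 8 at an unadjusted p under 0.05). Of all tested genes only 0.475% in the epithelium and 2.69% in the mesenchyme were called there. Depleted against sham gave 6 higher and 2 lower of 17 tested in the mesenchyme, where 15.2% of all genes were called. The 2 lower ones were Reck, a membrane-anchored inhibitor of MMPs (means 1444 and 1194, -0.28 ± 0.0684, adjusted p = 0.0131), and Pcsk6, a proprotein convertase (means 400.0 and 201, -1.0 ± 0.269, adjusted p = 0.0301). Lrp1, an endocytic receptor that clears MMPs and TIMPs, rose in depleted against sham in both fractions (0.57 ± 0.117, adjusted p = 0.00904, and 0.53 ± 0.0993, adjusted p = 0.0022).

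The related ADAMTS proteases, many of which cut proteoglycans and are inhibited by Timp3, were called in 5 higher and 0 lower of 14 in depleted against sham epithelium and in 4 higher and 1 lower (Adamts10) of 16 in mesenchyme. Of all tested genes, 11.3% and 15.2% were called there. Adamts4 and Adamts15 rose in both fractions in depleted against sham. The fibroblast sum was also higher in depleted than in sham epithelial libraries, and its part in the epithelial rises was not tested. Mesenchymal Adamts15 averaged 3473, 4249 and 7609 and rose in depleted against irradiated by 0.84 ± 0.181 (adjusted p = 0.0297). Adamts3, a procollagen N-proteinase, averaged 97.9, 122 and 242 and rose there by 0.99 ± 0.176 (adjusted p = 0.00658). In the epithelium, irradiation raised Adamts1 by 0.97 ± 0.137 (means 805 and 1585, adjusted p = 0.00272) and Adamts6 by 1.58 ± 0.260 (means 9.11 and 29.8, adjusted p = 0.00196). The sham mean of Adamts6 lies under the filter value of 10, so it may have passed the filter through the irradiated groups. Among the ADAM proteases 1 of 10 tested in mesenchyme, Adam9, rose in depleted against irradiated, by 0.60 ± 0.115 (means 1202 and 1856, adjusted p = 0.0121). In that comparison 2.69% of all genes were called.

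Of 20 genes for matrix proteins that these enzymes cut, 3 rose and 0 fell in depleted against irradiated mesenchyme. Of all tested genes 2.69% were called there. The 3 were Vcan, a large proteoglycan (2161 to 3344, adjusted p = 0.00815), and the basement membrane collagens Col4a1 (12273 to 17813, adjusted p = 0.0206) and Col4a2 (7978 to 11121, adjusted p = 0.0402). Eln, the elastin gene, fell in irradiated against sham mesenchyme, from a mean of 22255 to 15384 (-0.53 ± 0.139, adjusted p = 0.0453), and fell in depleted against sham (15561, adjusted p = 0.024). In depleted against sham epithelium, where 11.3% of all genes were called, 12 rose and 1 (Tnc) fell. Col3a1 and Col1a2 were the first by adjusted p. Those collagens are fibroblast genes and stand in the fibroblast list whose sum moved in the same libraries. 

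Among 16 AP-1 and ETS transcription factor genes, families whose sites occur in many MMP promoters, Ets2 rose in depleted against irradiated mesenchyme by 0.57 ± 0.129 (means 2106 and 3117, adjusted p = 0.0319). Of the 16, 3 rose (Runx1, Ets2, Fosl2) and 0 fell in depleted against sham mesenchyme, where 15.2% of all genes were called, a share near that of the list. In depleted against sham epithelium 2 rose (Fosl2, Ets2) and 2 fell (Fosb, Fos), where 11.3% of all genes were called. In the epithelium Fosb (-0.44 ± 0.0664, adjusted p = 0.000974) and Fos (-0.33 ± 0.0613, adjusted p = 0.00531) fell in irradiated against sham, and 0 rose. Of all tested genes 3.14% were called there.

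Patterns over libraries most like those of 2 members are given as a description over 12 libraries that share groups, for tested genes with a mean of at least 50. For mesenchymal Timp1 the highest Pearson r of log2 values were with Alpl (0.987), Isyna1 (0.981), Plac8 (0.981), Cyp1b1 (0.98) and Lbp (0.977). Lbp, for example, averaged 219, 559 and 1703 in sham, irradiated and depleted libraries, and Cyp1b1 averaged 289, 430 and 1323. For epithelial Mmp2 the genes were Ier5 (0.972), Sesn2 (0.967), Npr3 (0.961), Pld3 (0.944) and Utp14a (0.942). Sesn2 averaged 278, 624 and 750.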

How the data were processed

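RNA was measured in 24 libraries, 4 per group. Per the submitters' processing notes, cutadapt 1.5, STAR 2.2.2a (as listed), SAMtools 1.8, RSEM 1.3.0 and DESeq2 (no version) were used with build GRCm38. The annotation release and strand setting are not given in the sources used here. The authors deposited 1 table per fraction with a signal in normalised counts, read counts divided by 1 size factor per library, and all positive values were whole multiples of 1 step within 0.001. For 2 mesenchymal libraries, sham replicate 3 and depleted replicate 4, that step lay close to 1, so their scale is less sure. Symbols came from GENCODE M21, which gave 48349 of 48795 identifiers a symbol. Levels per kb use merged exon lengths of that release. Sequences are RefSeq promoters of GRCm38.p6.

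The main test was limma 3.58.1 (trend, robust; R 4.3.3) on log2(value + 1), for genes with a value of at least 10 in at least 4 of 12 libraries, with Benjamini-Hochberg adjustment over all tested genes. Alternatives were pseudocounts of 0.5 and 8, no filter, a mean of at least 50, TMM scaling, edgeR 4.0.16 and DESeq2 1.42.0 on the recovered reads, a replicate block, library weights, marker covariates, 2 groups alone and each library left out. A count of 0 allows 3 reads, a value of 2.36 to 3.81 in the epithelial and 2.48 to 3.66 in the mesenchymal table, for counting error only. Within groups all 36 library pairs differed beyond counting error (chi-square per degree of freedom 2.33 to 14.6). The p-values measure the spread between these samples. Scripts were tested on simulated data. The members, the gene lists and the rule for named genes (all members, up to 6 called genes per list and comparison, synapsin genes, and 5 genes of like pattern for 1 member per fraction) were chosen with earlier results of these data known. Results for 1 gene of the regulator list are not reported here.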

Additional observations from a re-analysis of the deposited data

How the results depend on the processing

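No called member changed direction in any alternative. In epithelium, irradiated against sham, the count of called members (1) was 2 with DESeq2, library weights and 2 groups alone, 0 with the leukocyte or fibroblast covariate, and 1 to 2 with a library left out. In depleted against irradiated epithelium (1) it was 0 with no filter, edgeR, library weights, the fibroblast or mesothelial covariate and 2 groups alone, and 0 to 1 with a library left out. In depleted against sham epithelium (3) it was 4 with edgeR and with DESeq2, which added Mmp19. It was 1 with the leukocyte and 0 with the fibroblast or mesothelial covariate, and 3 to 4 with a library left out. In irradiated against sham mesenchyme (2) it was 1 with a pseudocount of 0.5, no filter, a mean of at least 50, TMM scaling or edgeR, 0 with the leukocyte covariate, and 1 to 2 with a library left out. With a library left out it was 2 to 3 for depleted against irradiated (3) and 5 to 6 for depleted against sham mesenchyme (5). In depleted against irradiated mesenchyme Timp3 also lost its call with no filter (adjusted p = 0.0575 in limma) and with 2 groups alone (0.0765). The count for the irradiation response between fractions (0) remained 0, and that for the depletion response (0) was 1 with DESeq2 and 0 to 1 with a library left out. The mesothelial covariate was chosen after seeing the data.

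Same-numbered libraries of a table varied together only in part (r from -0.111 to 0.152 in epithelium and -0.0523 to 0.172 in mesenchyme, 1 and 3 of 12 pairs over 0.1), so they were not treated as pairs. All 3 such mesenchymal pairs and the epithelial one were of replicate 2, which had the highest leukocyte sum in 6 of 6 groups and the highest endothelial sum in 5 of 6; what the number marks is not stated. 4 of 12 libraries in each table correlated best with their own number. Across fractions r was -0.0367 to 0.255, with 7 of 12 pairs over 0.1, and the fit of all 24 libraries treats the fractions as independent. The replicate block took depleted against irradiated epithelium to 0 members (Timp1, adjusted p = 0.0787) and changed no other member count; calls over all genes in irradiated against sham mesenchyme went from 631 to 1048 and for the irradiation response between fractions from 95 to 184.

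Over all genes DESeq2 called more than limma did in irradiated against sham (816 against 522 in epithelium, 1055 against 631 in mesenchyme), in depleted against irradiated (288 against 79 and 792 against 448) and between fractions (434 against 95 and 160 against 90). With a library left out, calls in irradiated against sham ranged from 220 to 654 in epithelium and 182 to 1071 in mesenchyme, and in depleted against irradiated from 36 to 197 and 175 to 799. The cause was not tested. Median changes over all genes moved by less than 0.05 between scalings. Epithelial Timp4, and Timp1 in sham epithelium, rest on few reads.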
